A study of Mus musculus with 8 samples.

Results

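The matrix metalloproteinases and their inhibitors were followed as 10 genes, chosen by gene name from a table of 55421 gene identifiers. They were 7 enzymes, namely *Mmp2*, *Mmp3*, *Mmp9*, *Mmp10*, *Mmp11*, *Mmp13* and *Mmp14*, and 3 inhibitors, namely *Timp1*, *Timp2* and *Timp3*. All 10 passed the filter on low counts, as did 20477 genes in all. RNA-seq libraries came from spermatogonial stem cell (SSC) cultures of C57BL/6XDBA/2 mice, started from testes of pups aged 6 days and grown with GDNF and bFGF, with N2, on irradiated mouse embryonic fibroblast feeders from another, outbred stock. Veh cultures stayed in complete medium with the DMSO vehicle, RA cultures received 100 nM retinoic acid, NR cultures were kept in nutrient restriction medium made of 10% complete medium and 90% Earle's Balanced Salt Solution (EBSS), and NRRA cultures received both. The NR and NRRA libraries carry EBSS and RA_EBSS in their labels. Each condition had 2 libraries, taken after 48 h. All 4 conditions share the feeder cells, and the RNA is that of the whole culture, so fewer cells of a type and less RNA per cell cannot be told apart in any value given here. A library's total ranged from 19261333 to 30023585 counts.

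Matrix metalloproteinases are zinc-dependent enzymes that cut collagens, laminins, fibronectin and other proteins of the extracellular matrix. Most are secreted as inactive pro-enzymes and are activated by removal of the pro-domain, a step to which plasmin, furin and other metalloproteinases contribute. Timp proteins bind the active site of these enzymes and block them, and Timp2 also takes part in the activation of pro-Mmp2 by Mmp14 at the cell surface. In testis and in culture, fibroblasts and other somatic cells are well-known sources of these proteins, and transcription of several Mmp genes depends on AP-1 sites close to the start of the gene.

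The members lie on 7 chromosomes of GRCm38, and *Mmp3* (chromosome 9, bases 7445822 to 7455975), *Mmp10* (7502352 to 7510240) and *Mmp13* (7272514 to 7283331) lie in 1 cluster of chromosome 9, all on the plus strand. *Timp3* lies on chromosome 10, bases 86300372 to 86349506, plus strand, and *Mmp11* on the minus strand of the same chromosome, bases 75923222 to 75936496. *Mmp2* is on chromosome 8 (92827291 to 92853420), *Mmp9* on 2 (164940780 to 164955850), *Mmp14* on 14 (54431612 to 54445364) and *Timp1* on X (20870166 to 20874735), on the plus strand, and *Timp2* is on chromosome 11 (118301069 to 118355740), on the minus strand. Promoter sequences, from 250 bases before to 50 bases after the RefSeq start on GRCm38.p6, were at hand for 8 of the 10 members, all but *Mmp2* and *Mmp9*. The clustered 3 are shown because each holds the letters TGANTCA, which an AP-1 dimer can bind, and TATAAA, and *Timp3* because it holds neither. Capitals mark the matches, and every sequence is on the gene's own strand, 5′ to 3′.
Mmp3 (chr9:7445572-7445871, plus strand): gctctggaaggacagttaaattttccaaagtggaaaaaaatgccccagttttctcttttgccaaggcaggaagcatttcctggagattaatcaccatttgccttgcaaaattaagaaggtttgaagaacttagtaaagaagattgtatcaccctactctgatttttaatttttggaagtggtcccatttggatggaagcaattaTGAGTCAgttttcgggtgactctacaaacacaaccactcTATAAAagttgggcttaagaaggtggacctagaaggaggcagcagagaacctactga
Mmp10 (chr9:7502092-7502391, plus strand): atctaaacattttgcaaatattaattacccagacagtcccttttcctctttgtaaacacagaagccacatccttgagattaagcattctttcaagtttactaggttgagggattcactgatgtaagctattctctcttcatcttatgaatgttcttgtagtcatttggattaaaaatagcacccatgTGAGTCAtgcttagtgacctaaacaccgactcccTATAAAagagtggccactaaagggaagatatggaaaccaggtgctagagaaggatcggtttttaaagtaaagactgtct
Mmp13 (chr9:7272264-7272563, plus strand): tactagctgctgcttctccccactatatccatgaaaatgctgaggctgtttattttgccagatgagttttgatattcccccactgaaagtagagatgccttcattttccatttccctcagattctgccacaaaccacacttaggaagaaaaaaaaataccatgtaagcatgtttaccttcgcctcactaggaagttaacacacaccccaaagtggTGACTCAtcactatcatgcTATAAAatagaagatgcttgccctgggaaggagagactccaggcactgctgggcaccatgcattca
Timp3 (chr10:86300162-86300461, plus strand): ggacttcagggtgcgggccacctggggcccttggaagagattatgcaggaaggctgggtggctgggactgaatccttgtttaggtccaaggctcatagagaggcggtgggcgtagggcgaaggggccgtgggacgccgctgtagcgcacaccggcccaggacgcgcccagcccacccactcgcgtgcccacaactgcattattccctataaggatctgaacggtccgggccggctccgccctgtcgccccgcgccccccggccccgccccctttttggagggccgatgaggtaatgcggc
Bases are counted from the annotated start, with -1 just before it. In *Mmp3* the TGANTCA match, TGAGTCA, lay at bases -46 to -40 and TATAAA at -7 to -2. In *Mmp10* they lay at -63 to -57 (TGAGTCA) and -29 to -24, and in *Mmp13* at -35 to -29 (TGACTCA) and -16 to -11. Both strands were searched, and neither motif overlapped the other in these 3. Neither motif was found in the windows of *Mmp11*, *Mmp14*, *Timp1*, *Timp2* and *Timp3*. Only exact matches were counted, and a near match such as TGAGTAA, which the *Timp1* window holds, was not. Among the other Mmp genes of the cluster, the windows of *Mmp1b*, *Mmp1a* and *Mmp20* held both motifs, as did 1 of the 2 windows each of *Mmp12* and *Mmp7*, whose other window held neither. That of *Mmp8* held TATAAA alone, and that of *Mmp27* held neither. Of 32851 promoter windows of this length, 7.81% held TGANTCA, 13.6% held TATAAA and 1.54% held both. A match is a description of the letters and not of binding.

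Levels scaled by gene length and library total (TPM) ordered the members from *Mmp3* and *Timp1* down to *Mmp11*. Averaged over the 8 libraries, *Mmp3* stood at 2090 TPM, *Timp1* at 1799, *Timp2* at 785, *Mmp2* at 533, *Mmp14* at 244, *Mmp9* at 240, *Mmp13* at 202, *Timp3* at 102, *Mmp10* at 68.7 and *Mmp11* at 55.8 TPM. Values below are CPM, counts scaled by the TMM-adjusted library total, and compare libraries within a gene. A gene passed the test at an adjusted p under 0.05 with edgeR's quasi-likelihood test, with Benjamini-Hochberg adjustment over all genes tested, and was called where its fold was also at least 2.

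*Mmp3*, stromelysin-1, an enzyme with many matrix substrates that also activates other pro-enzymes, was lower in each treated condition than in Veh. Its level was 2293 and 2466 CPM in the 2 Veh libraries, 1101 and 1011 CPM under RA, 688 and 665 CPM under NR, and 289 and 274 CPM under NRRA. No library of a condition overlapped another condition, and the order from high to low was Veh, RA, NR, NRRA. Against Veh its log2 fold change was -1.17 (SE 0.043, adjusted p = 2.0e-17) under RA, -1.81 (SE 0.044, adjusted p = 9.6e-22) under NR and -3.08 (SE 0.047, adjusted p = 2.2e-26) under NRRA by edgeR's quasi-likelihood test, that is 8.45-fold lower under NRRA. All 3 differences were called.

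*Mmp10*, stromelysin-2, a close relative of *Mmp3* in the same cluster, was far lower in the NR medium. It had 58.1 and 63.0 CPM in Veh and 70.2 and 73.6 CPM under RA, against 2.31 and 2.24 CPM under NR and 2.07 and 1.89 CPM under NRRA. The restricted libraries lay far below the others, and they still had 48 to 59 counts each. The log2 fold change was -4.73 (SE 0.10, adjusted p = 6.7e-23) under NR against Veh, 26.6-fold lower, and -4.93 (SE 0.099, adjusted p = 8.7e-24) under NRRA against Veh, 30.5-fold lower, by edgeR's quasi-likelihood test. In RA it rose by 0.25 on the log2 scale (SE 0.059, adjusted p = 0.0011), below the 2-fold limit. NRRA and NR differed by -0.20 on the log2 scale (SE 0.19, adjusted p = 0.42), which did not pass.

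*Mmp13*, collagenase-3, which cuts fibrillar collagen, moved in another direction in NR medium. It had 141 and 161 CPM in Veh, 105 and 108 under RA, 229 and 212 under NR, and 137 and 132 under NRRA. It was highest under NR and lowest under RA, and the 4 conditions did not overlap. Against Veh it changed by 0.54 under NR (SE 0.054, adjusted p = 4.8e-09) and -0.51 under RA (SE 0.056, adjusted p = 4.2e-08), and -0.17 under NRRA (SE 0.055, adjusted p = 0.0091), by edgeR's quasi-likelihood test. The NRRA difference no longer passed without Veh replicate 2 (-0.075, adjusted p = 0.19) or without NRRA replicate 2 (-0.14, adjusted p = 0.10), nor with total counts in place of TMM (-0.057, adjusted p = 0.39).

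The gelatinases *Mmp2* and *Mmp9* cut denatured collagen and type IV collagen, and *Mmp2* fell with RA in each medium. *Mmp2* had 606 and 591 CPM in Veh, 384 and 349 under RA, 593 and 604 under NR, and 480 and 480 under NRRA, so that Veh and NR overlapped and RA was lowest. Its log2 fold change against Veh was -0.71 under RA (SE 0.042, adjusted p = 4.0e-13) and -0.32 under NRRA (SE 0.042, adjusted p = 3.1e-07) by edgeR's quasi-likelihood test. Under NR its difference was -0.00024 (SE 0.042, adjusted p = 0.998) by the same test. *Mmp9* stayed between 219 and 266 CPM in the 8 libraries. Its differences from Veh were -0.045 under RA (SE 0.054, adjusted p = 0.54) and -0.089 under NRRA (SE 0.054, adjusted p = 0.16), which did not pass, and -0.18 under NR (SE 0.054, adjusted p = 0.0096), which passed by edgeR's quasi-likelihood test. Without Veh replicate 1 the NR difference was -0.11 (adjusted p = 0.093), and without NR replicate 1 it was -0.13 (adjusted p = 0.18). In RA it passed without RA replicate 1 (-0.16, adjusted p = 0.021), and under NRRA without Veh replicate 2 (-0.14, adjusted p = 0.025).

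*Mmp14*, a membrane-anchored enzyme that activates pro-Mmp2, was at 474 and 443 CPM in Veh, 348 and 310 under RA, 483 and 507 under NR, and 377 and 368 under NRRA. The libraries with RA were the lower ones in each medium. It fell by 0.48 on the log2 scale under RA (SE 0.048, adjusted p = 7.6e-09) and by 0.30 under NRRA (SE 0.048, adjusted p = 5.1e-06), both against Veh by edgeR's quasi-likelihood test. In NR the difference was 0.11 (SE 0.047, adjusted p = 0.065), which passed without Veh replicate 1 (0.18, adjusted p = 0.0013), without NR replicate 1 (0.16, adjusted p = 0.040), without RA replicate 1 (0.11, adjusted p = 0.044) and without RA replicate 2 (0.11, adjusted p = 0.040), with total counts in place of TMM (0.14, adjusted p = 0.013), with no filter on low counts (0.12, adjusted p = 0.012) and with only the Veh and NR libraries in the fit (0.12, adjusted p = 0.045). *Mmp11*, stromelysin-3, which is activated inside the cell by furin, ranged from 38.5 to 50.3 CPM. Only its RA difference from Veh passed, at -0.24 (SE 0.071, adjusted p = 0.0081), and it did not pass without Veh replicate 1 (-0.080, adjusted p = 0.41), without RA replicate 2 (-0.21, adjusted p = 0.10), with total counts in place of TMM (-0.14, adjusted p = 0.13) or with only the Veh and RA libraries in the fit (-0.20, adjusted p = 0.063). Its NRRA difference from Veh was -0.024 and passed without Veh replicate 2 (-0.15, adjusted p = 0.049). Of the exon bases of *Mmp11*, 5.58% overlap *Chchd10* on the opposite strand.

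**Figure D1:**
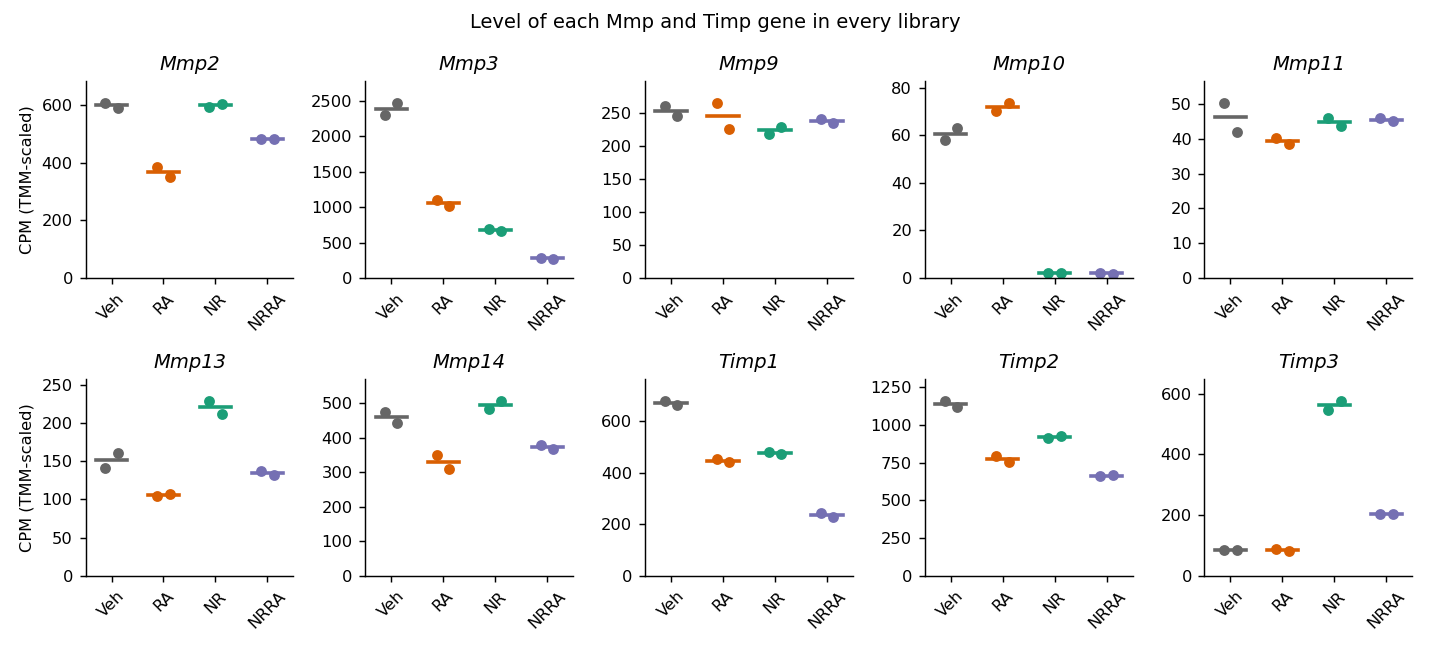
TMM-scaled CPM (y axis, starting at 0, its own scale in each panel) of each member in the Veh, RA, NR and NRRA libraries. Points are the 2 libraries of a condition and bars their mean. *Mmp3* falls from 2293 and 2466 CPM in Veh to 289 and 274 CPM under NRRA, *Mmp10* is at 1.89 to 2.31 CPM under NR and NRRA, and *Timp3* is highest under NR.

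Among the inhibitors, *Timp1*, a secreted inhibitor of most of these enzymes, was lower in all 3 treated conditions. It had 680 and 665 CPM in Veh, 455 and 441 under RA, 481 and 474 under NR, and 245 and 230 under NRRA, with no overlap between conditions. The log2 fold change against Veh was -0.59 under RA (SE 0.040, adjusted p = 5.6e-12), -0.49 under NR (SE 0.040, adjusted p = 1.0e-10) and -1.50 under NRRA (SE 0.041, adjusted p = 6.3e-21) by edgeR's quasi-likelihood test. Only the NRRA difference reached 2-fold, at 2.83-fold lower. *Timp2*, which also takes part in Mmp2 activation, followed the same order of conditions with 1160 and 1117 CPM in Veh, 792 and 752 under RA, 915 and 928 under NR, and 659 and 664 under NRRA. Relative to Veh its log2 fold change was -0.56 under RA, -0.30 under NR and -0.78 under NRRA (SE 0.037 in each), and all 3 passed.

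*Timp3*, the inhibitor that stays bound to the matrix and also inhibits several ADAM and ADAMTS proteases, rose in the NR medium. It had 83.6 and 85.5 CPM in Veh and 88.1 and 82.6 CPM under RA, which overlapped, against 546 and 578 CPM under NR and 205 and 203 CPM under NRRA. The NR libraries were the highest and the NRRA libraries lay between them and the others. The log2 fold change against Veh was 2.73 under NR (SE 0.048, adjusted p = 1.3e-24), 6.65-fold higher, and 1.27 under NRRA (SE 0.048, adjusted p = 4.9e-18), 2.41-fold higher, by edgeR's quasi-likelihood test. In RA it was 0.012 (SE 0.050, adjusted p = 0.88), which did not pass. *Timp3* shares 1733 of its 8144 exon bases (21.3%) with *Syn3*, synapsin III, on the opposite strand. *Syn3* held 0.419 to 0.452 counts for each *Timp3* count in the 8 libraries, and its log2 fold change was 2.71 under NR and 1.27 under NRRA against Veh. The study describes its libraries as stranded, but the strand setting of the counting is not given in the sources used here, so whether reads from the shared bases were counted for the right gene is uncertain. Most exon bases of *Timp3* are not shared.

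The members called differed between conditions, and fewer were called under RA than under NR or NRRA. In RA against Veh, 1 member (*Mmp10*) passed as higher and 7 as lower, where 19.8% of all genes tested passed as higher and 23.4% as lower. With the 2-fold limit 1 was lower, *Mmp3*, where 4.74% of all genes were called higher and 2.75% lower. In NR against Veh, 2 passed as higher and 5 as lower (background 21.7% and 22.2%), and with the 2-fold limit 1 was higher, *Timp3*, and 2 were lower, *Mmp3* and *Mmp10* (background 5.33% and 2.96%). In NRRA against Veh, 1 passed as higher and 7 as lower (background 30.1% and 28.7%), and with the 2-fold limit 1 was higher, *Timp3*, and 3 were lower, *Mmp3*, *Mmp10* and *Timp1* (background 9.91% and 6.02%). The median log2 fold change of the 10 members was -0.49 under RA, -0.11 under NR and -0.31 under NRRA, beside -0.019, 0.0057 and 0.030 over all genes tested. The groups did not overlap for 8, 8 and 9 members under RA, NR and NRRA against Veh, beside 68.1%, 69% and 77.3% of all genes tested. The comparisons share the Veh libraries.

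**Figure D2:**
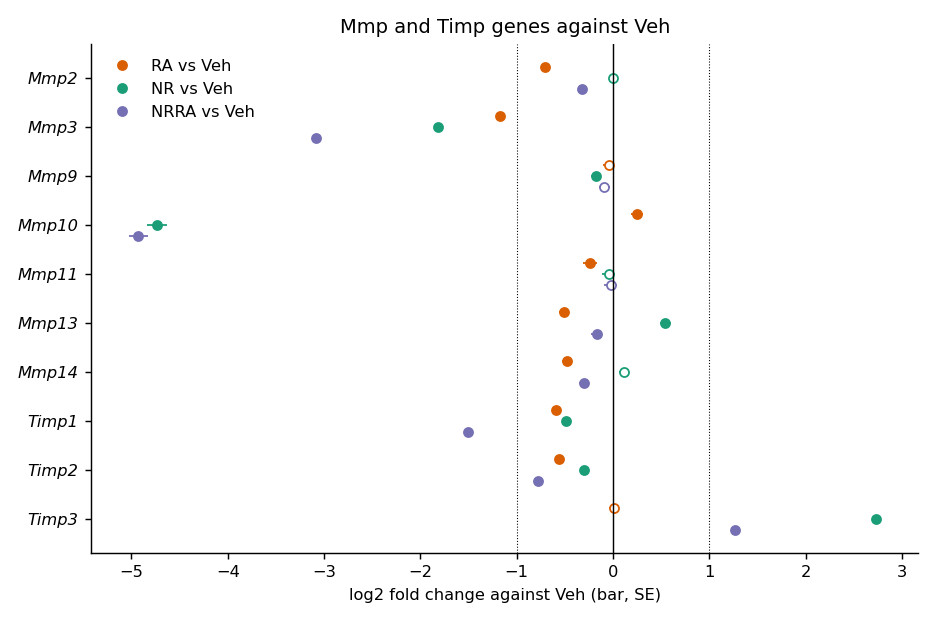
Log2 fold change against Veh (x axis) of the 10 members under RA, NR and NRRA, with the SE as a bar. Filled points passed the test at an adjusted p under 0.05 and dotted lines mark a 2-fold change. *Mmp10* stands at -4.73 under NR and -4.93 under NRRA and *Timp3* at 2.73 under NR, while *Mmp9* and *Mmp11* stay near 0.

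Adding restriction to RA (NRRA against RA) changed 9 of the 10 members, 5 higher and 4 lower, where 20.9% and 19.4% of all genes passed. *Mmp10* was 36.3-fold lower (log2 fold change -5.18, SE 0.095) and *Mmp3* 3.75-fold lower (-1.91, SE 0.045), while *Timp3* was 2.40-fold higher (1.26, SE 0.047). These 3 were the ones called, 1 higher and 2 lower (background 4.61% and 3.68%). *Timp1* was lower by a log2 fold change of -0.91 and *Timp2* by -0.22, and *Mmp2* was higher at 0.39, *Mmp13* at 0.34, *Mmp11* at 0.21 and *Mmp14* at 0.18, all passing by edgeR's quasi-likelihood test. *Mmp11* no longer passed without RA replicate 2 (0.18, adjusted p = 0.14), without NRRA replicate 1 (0.20, adjusted p = 0.085), without NRRA replicate 2 (0.23, adjusted p = 0.056) or with DESeq2 (0.19, adjusted p = 0.083). *Mmp14* no longer passed without RA replicate 2 (0.096, adjusted p = 0.17) or without NRRA replicate 1 (0.16, adjusted p = 0.05003). *Mmp9* was the member that did not pass (-0.044, adjusted p = 0.56), and it passed without RA replicate 2 (-0.16, adjusted p = 0.029).

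Adding RA to the restricted medium (NRRA against NR) lowered 7 members, and the other 3 did not pass. Of all genes tested, 21.3% passed as higher and 22.1% as lower. The 3 called were *Timp3* (log2 fold change -1.46, SE 0.043, 2.75-fold lower), *Mmp3* (-1.26, SE 0.045, 2.40-fold lower) and *Timp1* (-1.01, SE 0.041, 2.01-fold lower), where 4.56% of all genes were called higher and 4.14% lower. *Timp1* was just past the 2-fold limit and fell short of it without NRRA replicate 2 (-0.96) and with total counts in place of TMM (-0.93). *Mmp13* fell by 0.71, *Timp2* by 0.48, *Mmp14* by 0.41 and *Mmp2* by 0.32 on the log2 scale, all passing. *Mmp9* (0.088, adjusted p = 0.20), *Mmp10* and *Mmp11* (0.023, adjusted p = 0.82) did not pass by edgeR's quasi-likelihood test. *Mmp9* passed with total counts in place of TMM (0.17, adjusted p = 0.010) and with only the NR and NRRA libraries in the fit (0.088, adjusted p = 0.012).

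Whether the response to RA differed between complete and restricted medium was tested as an interaction, the log2 change with RA in NR medium minus that in complete medium. It passed for 1 member as positive and 2 as negative, beside 6.37% and 6.58% of all genes. *Timp3* had the largest absolute value of the 10 members, -1.47 (SE 0.066, adjusted p = 2.3e-14), with a log2 change under RA of 0.012 in complete medium and -1.46 in NR medium. It alone reached 2-fold, where 0.786% of all genes were called positive and 1.46% negative. *Timp1* had -0.42 (SE 0.057, adjusted p = 6.2e-06), and fell by 0.59 in complete medium and by 1.01 in NR medium. *Mmp2* had 0.39 (SE 0.059, adjusted p = 3.3e-05), and fell by 0.71 in complete medium and by 0.32 in NR medium. For *Mmp3* the log2 change with RA was -1.17 in complete medium and -1.26 in NR medium, with an interaction of -0.091 (SE 0.061, adjusted p = 0.38) by edgeR's quasi-likelihood test, which did not pass.
Of the other members, *Mmp10* had an interaction of -0.45 (SE 0.20, adjusted p = 0.15), *Mmp11* of 0.26 (SE 0.098, adjusted p = 0.081) and *Mmp13* of -0.21 (SE 0.077, adjusted p = 0.082), none of which passed. Without Veh replicate 2 the interaction passed for *Mmp3* (-0.18, adjusted p = 0.010), *Mmp11* (0.35, adjusted p = 0.0020) and *Mmp13* (-0.34, adjusted p = 0.00011), without NR replicate 2 for *Mmp13* (-0.30, adjusted p = 0.038), and without RA replicate 1 for *Mmp9* (0.25, adjusted p = 0.020). *Mmp9* (0.13), *Mmp14* (0.070) and *Timp2* (0.082) did not pass with all libraries.

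**Figure D3:**
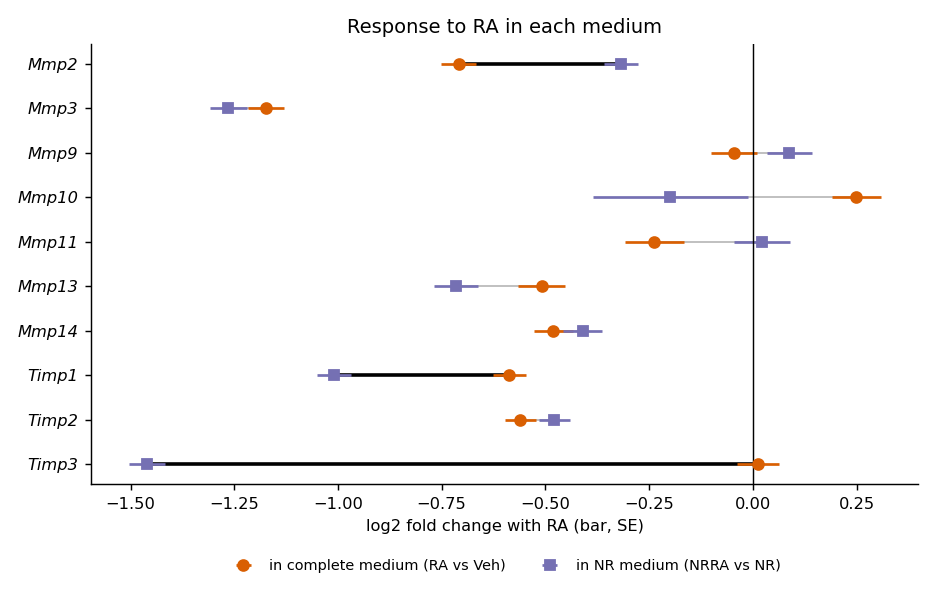
Log2 change with RA (x axis) of each member in complete medium (circles, RA against Veh) and in NR medium (squares, NRRA against NR), with the SE as a bar. Black connecting lines mark the 3 members whose interaction passed, *Mmp2*, *Timp1* and *Timp3*, and the longest line is that of *Timp3*, from 0.012 to -1.46.

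Summed per length, RNA of the 7 enzymes was above that of the 3 inhibitors in Veh and close to it under NR and NRRA. The summed Mmp level was 5784 ± 244 TPM in Veh, 3287 ± 153 under RA, 2811 ± 25.5 under NR and 1853 ± 36.9 under NRRA (mean ± SD, n = 2). The summed Timp level was 3491 ± 44.1, 2560 ± 36.8, 2967 ± 1.63 and 1726 ± 43.2 TPM in the same order. The ratio of Timp to Mmp RNA was 0.604 ± 0.033 in Veh, 0.780 ± 0.025 under RA, 1.06 ± 0.0090 under NR and 0.931 ± 0.0047 under NRRA. *Mmp3* supplied 74.4% and 76.1% of the Mmp sum in the Veh libraries and 31.9% and 31.1% in the NRRA libraries. Without *Mmp3* the direction turned, with a ratio of 2.45 and 2.43 in Veh, 2.12 and 2.21 under RA, 2.00 and 1.98 under NR, and 1.37 and 1.35 under NRRA. These are ratios of RNA and say nothing of protein or of enzyme activity, and they were not tested.

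**Figure D4:**
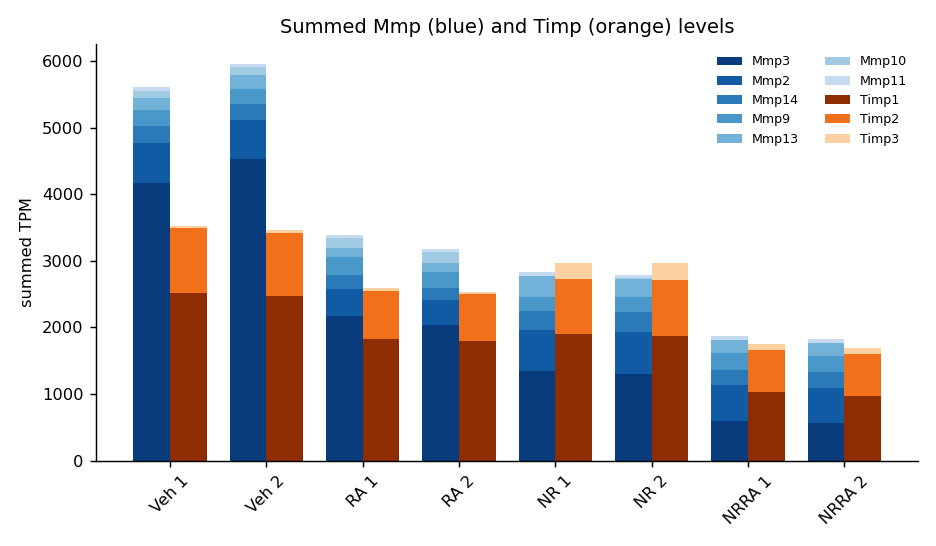
Summed TPM (y axis, starting at 0) of the 7 Mmp members (blue stack) and the 3 Timp members (orange stack) in each library, with 1 shade per gene. The Mmp stack falls from 5612 and 5957 TPM in Veh to 1879 and 1827 TPM under NRRA, and *Mmp3*, its darkest part, shrinks most.

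*Mmp3*, *Mmp10* and *Mmp13* belong to a cluster of 10 Mmp genes that spans 427.1 kb of chromosome 9 (bases 7272514 to 7699585), with 0 other protein-coding genes in GENCODE M21. From the start of *Mmp13*, the genes follow in the order *Mmp12* at 71.9 kb, *Mmp1b* at 95.7, *Mmp3* at 173.3, *Mmp1a* at 191.6, *Mmp10* at 229.8, *Mmp8* at 285.9, *Mmp27* at 298.9, *Mmp20* at 355.7 and *Mmp7* at 419.6 kb. The genes of the cluster did not all move alike under NR. *Mmp10* was 26.6-fold lower and *Mmp13*, at the end of the cluster, 1.46-fold higher. The genes between them, *Mmp12* (log2 fold change -0.45), *Mmp1b* (-0.95), *Mmp3* (-1.81) and *Mmp1a* (-3.61), all passed as lower. On the other side of *Mmp10*, *Mmp8* differed by -0.31 (SE 0.19, adjusted p = 0.19) and *Mmp27* by -0.017 (adjusted p = 0.96) by edgeR's quasi-likelihood test, and neither passed. *Mmp1a*, a collagenase between *Mmp3* and *Mmp10* that was looked at after its values were seen, had 43 and 41 counts in Veh, 30 and 40 under RA, 2 and 6 under NR, and 3 and 3 under NRRA. *Mmp20* and *Mmp7* had 0 to 2 counts in each library and were not tested.

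**Figure D5:**
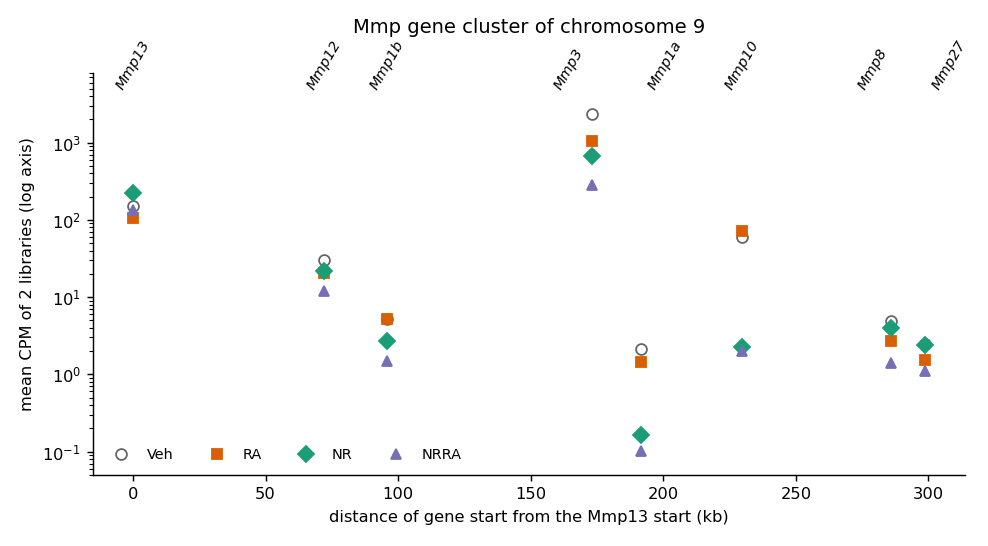
Mean CPM of the 2 libraries (y axis, log scale) of the 8 tested genes of the chromosome 9 cluster, by distance of the gene's annotated left end from that of *Mmp13* in kb (x axis). Grey open circles are Veh, orange squares RA, green diamonds NR and purple triangles NRRA. NR and NRRA lie far below Veh and RA for *Mmp1a* and *Mmp10* and not for *Mmp13*.

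Of the 17 other Mmp and Timp genes, 14 were tested, and most of those that passed were lower. In RA against Veh 11 passed as lower, under NR 2 passed as higher and 7 as lower, and under NRRA 1 passed as higher and 10 as lower. With the 2-fold limit 1 was lower under RA, 2 were higher and 1 lower under NR, and 1 was higher and 6 lower under NRRA. The median was -0.53, -0.27 and -0.50 in the 3 comparisons. Of all genes tested, 19.8% passed as higher and 23.4% as lower under RA, 21.7% and 22.2% under NR, and 30.1% and 28.7% under NRRA. The shares called higher and lower were 4.74% and 2.75%, 5.33% and 2.96%, and 9.91% and 6.02% in that order. *Mmp25*, a membrane-anchored enzyme known from leukocytes, had a log2 fold change of -2.18 under RA, -0.98 under NR and -2.64 under NRRA. *Mmp12*, macrophage elastase, had -0.53, -0.45 and -1.33, and *Mmp8*, neutrophil collagenase, had -0.81 under RA and -1.80 under NRRA. *Mmp1b*, a relative of *Mmp1a* close enough that the split of reads between them is uncertain, with 10.8% of its exon bases shared with *Mmp12* on the opposite strand, had -0.95 under NR and -1.80 under NRRA. *Mmp23* went the other way under NR and NRRA, at -0.53 under RA, 1.21 under NR and 1.00 under NRRA.

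Genes that control activation and proteolysis at the cell surface were lower in part. Of 21 tested, 1 was called higher and 5 lower under NRRA, where 9.91% of all genes were called higher and 6.02% lower. The median log2 fold change of the 21 was -0.15. *Plau*, urokinase, which makes plasmin from plasminogen, rose under RA (log2 fold change 1.22, SE 0.052) and fell under NR (-2.95, SE 0.069) and NRRA (-2.05, SE 0.061). Its mean level was 125 CPM in Veh, 291 under RA, 16.0 under NR and 30.2 under NRRA. *Plaur*, the urokinase receptor, had -0.39 under RA, -1.92 under NR and -2.45 under NRRA. *Tfpi2*, a protease inhibitor of the matrix, had 0.35, -1.20 and -2.02, and *Cd44*, a hyaluronan receptor, had -0.24, -0.92 and -1.88. *Ctsl*, the lysosomal protease cathepsin L, had -0.29, -1.12 and -1.08, with 26.8% of its exon bases shared with other genes.

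The ADAM and ADAMTS proteases, several of which *Timp3* inhibits, held genes that rose with restriction. Of 18 tested, 5 were called higher under NR and 3 under NRRA, and the median was 0.33 and 0.01. Over all genes tested, 5.33% were called higher under NR and 9.91% under NRRA. *Adamts5*, an aggrecanase, rose from a mean of 16.5 CPM in Veh to 253 under NR and 161 under NRRA (log2 fold change 3.94, SE 0.064, and 3.29, SE 0.064), and had -0.53 under RA. *Adamts1*, another aggrecan- and versican-cutting enzyme, had 2.75 under NR and 1.73 under NRRA. *Adamts15* rose in all 3 conditions, by 3.08 under RA, 2.73 under NR and 5.27 under NRRA, from 11 counts in each Veh library.

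The list of AP-1 and Ets factors and cytokines holds many known regulators of Mmp genes. It had 2 genes called higher and 6 lower of 19 tested under NRRA, and 3 higher and 3 lower under NR. Over all genes, 9.91% were called higher and 6.02% lower under NRRA, and 5.33% and 2.96% under NR. *Fosl1*, an AP-1 subunit, had -0.04 under RA (adjusted p = 0.64), -2.26 under NR and -2.24 under NRRA by edgeR's quasi-likelihood test, with 57.2% of its exon bases shared with *Ccdc85b* on the opposite strand. *Jun*, the partner of Fos proteins in AP-1, had 0.10 under RA (adjusted p = 0.10), -1.54 under NR and -1.11 under NRRA. Other AP-1 subunits did not all fall under NR. *Fos* (-0.18, adjusted p = 0.25) and *Fosb* (-0.20, adjusted p = 0.49) did not pass by that test, and *Fosl2* passed as higher (0.27). Mean CPM in Veh, NR and NRRA was 168, 202 and 129 for *Fosl2*, 134, 144 and 125 for *Jund*, and 160, 117 and 75.8 for *Junb*. *Etv4*, an Ets factor, had -0.10 under RA (adjusted p = 0.19), -1.27 under NR and -2.23 under NRRA. *Tgfb1* fell in all 3 conditions (-0.18, -0.90 and -1.40). *Tgfb2*, with 0.15 under RA (adjusted p = 0.22), rose by 1.82 under NR and 3.37 under NRRA, and *Tgfb3* by 1.64 under NR and 1.10 under NRRA. Of the 6 retinoid receptors tested, 1 was called higher and 1 lower under NRRA, beside 9.91% and 6.02% of all genes. *Rarb*, a receptor whose own gene is a known retinoic acid target, had 9 and 8 counts in Veh, 827 and 1147 under RA, 10 and 16 under NR, and 1328 and 1521 under NRRA, so that RA libraries stood apart in both media. Of its exon bases, 38.4% are shared with other genes. *Rxrg* had -1.36 under RA, -0.92 under NR and -3.08 under NRRA.

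The genes whose levels ran most like those of *Mmp3* and *Timp1*, the enzyme and the inhibitor with the highest mean TPM, were ranked by Pearson's r of log2 CPM over the 8 libraries among 14806 genes. They were *Cd34* (r = 0.9995), *Uba1* (r = 0.998) and *Prdx1* (r = 0.998) for *Mmp3*, and *Eno1* (r = 0.998), *Plvap* (r = 0.997) and *Spsb1* (r = 0.997) for *Timp1*. The 8 points share 4 conditions and are not independent, and 1442 and 1158 genes had an r above 0.9.

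Fibroblast markers moved with the conditions, though not all in the same direction, and were compared with the members in every library. All 14 fibroblast markers were detected, and their summed level was 13674 to 13793 CPM in Veh, 10641 to 11441 under RA, 25405 to 26634 under NR and 21993 to 22708 under NRRA. Of the 14, 11 passed as higher and 2 as lower under NR, and 7 as higher and 7 as lower under NRRA. Over all genes tested, 21.7% passed as higher and 22.2% as lower under NR, and 30.1% and 28.7% under NRRA. The sum rested mostly on abundant genes, such as *Col1a1* with a mean of 3742 CPM in Veh and 7869 under NR. *Twist2* went the other way under NR (133 CPM in Veh and 47.6 under NR), as did *S100a4* (3.15 CPM in Veh, 1.74 under NR and 0.618 under NRRA), which shares 51.7% of its exon bases with *Gm42674*, and *Lum* was at 234 CPM in Veh and 140 under NRRA. The geometric mean of this mixed list differed from Veh by -0.26 under RA, 0.49 under NR and 0.16 under NRRA on the log2 scale. Relative to that mean, the log2 difference from Veh was -0.92, -2.31 and -3.23 for *Mmp3* under RA, NR and NRRA, 0.50, -5.23 and -5.09 for *Mmp10*, 0.27, 2.24 and 1.12 for *Timp3*, and -0.33, -0.99 and -1.66 for *Timp1*. *Mmp13* stood at -0.25, 0.05 and -0.32 on that scale, and *Mmp2* at -0.45, -0.49 and -0.47. *Mmp14* (-0.22, -0.38 and -0.46) and *Timp2* (-0.30, -0.80 and -0.94) stood below Veh in each treated condition, *Mmp9* at 0.21, -0.67 and -0.24, and *Mmp11* at 0.028, -0.53 and -0.17. Germ cell markers, 8 of 8 detected, summed to 906 to 918 CPM in Veh, 980 to 1038 under RA, 1079 to 1100 under NR and 1127 to 1150 under NRRA. Of the 8, 3 passed as higher and 5 as lower under NRRA. The undifferentiated spermatogonia list summed to 863 to 930 CPM in Veh, 331 to 339 under RA, 759 to 776 under NR and 156 to 157 under NRRA. Of its 8 genes, 2 passed as higher and 5 as lower under NR, and 7 passed as lower under NRRA. Macrophage markers, 8 of 8 detected, summed to 261 to 264 CPM in Veh, 210 to 231 under RA, 297 to 299 under NR and 274 to 287 under NRRA. The neutrophil list summed to 4.43 to 6.55 CPM, with 0 to 2 counts of *Ly6g* in each library. The endothelial list summed to 15.0 to 15.7 CPM in Veh, 12.6 to 13.7 under RA, 10.3 to 11.9 under NR and 9.05 to 9.29 under NRRA. Of its 6 genes, 2 passed as higher and 2 as lower under NRRA. Sertoli markers summed to 37.3 to 40.4 CPM in Veh, 25.6 to 26.3 under RA, 43.5 to 46.4 under NR and 13.5 to 14.3 under NRRA, with 0 or 1 counts of *Fshr*. That sum was mostly *Sox9* (31.9 CPM in Veh and 7.14 under NRRA), and *Wt1* rose under RA, from 4.56 to 8.96 CPM, with 4.50 under NRRA. The Leydig list summed to 7.68 to 9.07 CPM in Veh, 13.5 to 15.0 under RA, 5.77 to 7.03 under NR and 7.29 to 7.40 under NRRA. That sum was mostly *Star*, with a mean of 7.03 CPM in Veh and 12.9 under RA. The part of any of these cell types in the members' changes was not tested.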

How the data were processed

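The authors mapped reads with STAR 2.6.1c and counted them with featureCounts 1.6.4 on mm10, per the labels, and deposited raw counts per gene as whole numbers without normalization. The strand setting is not given in the sources used here. Whole-culture RNA of 8 libraries in 4 groups of 2 was measured, with groups taken from the labels. The paper describes the 2 libraries of a group as independent biological replicates. A p-value sets a difference against the spread between libraries of a group, estimated over the 4 groups. A gene alone has 4 residual degrees of freedom, and edgeR draws its spread towards the trend of all genes tested, which adds to them. The common biological coefficient of variation was 3.35%. The very small p-values thus rest on a small spread between 2 libraries a group and on information shared between genes. Of 55421 identifiers, 55240 were in GENCODE M21.

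Counts were filtered with filterByExpr, scaled with TMM and fitted with edgeR 4.0.16 (R 4.3.3), with 1 coefficient per group over all 8 libraries. 6 contrasts, the interaction included, were tested with its quasi-likelihood F test, with p-values adjusted by Benjamini-Hochberg over 20477 genes, at 0.05 and a 2-fold limit. SE is the absolute log2 value divided by the square root of F. TPM used the union of exons. Alternatives were DESeq2 1.42.0, other scaling, no filter, only the groups compared, a replicate block and each library left out. The fit was tested on simulated data. Figures used Python 3.11.15 and matplotlib 3.10.9.

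The members and gene lists were chosen with earlier results of these data known. The text names all 10 members. From each list it names genes called in NRRA against Veh or in the interaction with a mean of at least 50 counts, at most 6 by absolute log2 value, and the 3 genes most correlated with the Mmp and the Timp of highest TPM. *Syn3*, other genes of the chromosome 9 cluster and the AP-1 subunits other than *Fosl1* and *Jun* were named after their values were seen. Replicates within a group differed by more than sampling noise (chi-square per gene of 1.58 to 3.93).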

Additional observations from a re-analysis of the deposited data

Results flagged for a closer look

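The response to RA differed between complete and restricted medium, by the interaction test, for 3 of the 10 members. Of all genes tested, 6.37% passed as positive and 6.58% as negative in the interaction. *Timp3* had an interaction of -1.47 (log2, SE 0.066, adjusted p = 2.3e-14), with a change with RA of 0.012 in complete medium and -1.46 in NR medium. *Timp1* had an interaction of -0.42 (SE 0.057, adjusted p = 6.2e-06), and *Mmp2* of 0.39 (SE 0.059, adjusted p = 3.3e-05), all by edgeR's quasi-likelihood test. *Syn3*, which overlaps *Timp3* on the opposite strand, had an interaction of -1.53 (SE 0.078), and how reads from the shared bases were assigned is uncertain.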

How the results depend on the processing

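Counts with an adjusted p under 0.05 and no 2-fold limit are given beside the shares of all genes passing as higher and lower. In RA against Veh, 1 member was higher and 7 lower (19.8% and 23.4%). Against Veh, 2 were higher and 5 lower in NR (21.7% and 22.2%), and 1 higher and 7 lower in NRRA (30.1% and 28.7%). NRRA against RA had 5 higher and 4 lower (20.9% and 19.4%), and NRRA against NR had 7 lower (22.1%). The interaction had 1 higher and 2 lower (6.37% and 6.58%). Summed CPM in place of TPM gave Timp to Mmp ratios of 0.480 for Veh, 0.590 for RA, 0.867 for NR and 0.710 for NRRA. Leaving out 1 library gave 2 to 3 members lower in NRRA against NR (2 without NRRA replicate 2, and 2 with total counts), and the other counts of members called did not move. The direction turned in these cases, all small and none called. With total counts, *Mmp9* gave 0.055 in RA and 0.024 in NRRA, *Mmp11* gave 0.090 in NRRA and *Mmp2* gave 0.032 in NR, each against Veh. *Mmp2* in NR against Veh also gave 0.0097 with no filter, 0.010 with only these groups and 0.00033 with the replicate block. With a library left out, *Mmp9* in RA ran from -0.16 to 0.067, *Timp3* in RA from -0.035 to 0.060, *Mmp2* in NR from -0.0063 to 0.037, *Mmp11* in NR from -0.16 to 0.11 and in NRRA from -0.15 to 0.12, each against Veh. *Mmp9* in NRRA against RA ran from -0.16 to 0.071, *Mmp11* in NRRA against NR from -0.032 to 0.042, and the *Mmp14* interaction from -0.016 to 0.16. Over all settings, 776 of the members' values stayed on their side of the threshold with their direction, 15 no longer passed, 18 newly passed and 21 turned; the cause was not tested.

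Over all genes, the interaction had 161 calls higher and 298 lower with edgeR and 103 and 184 with DESeq2. Total counts moved the median of all genes from -0.019 to 0.083 in RA and from 0.030 to 0.14 in NRRA against Veh. Deviations of same-numbered libraries from their group mean had correlations of -0.030 to 0.025 over all genes tested. Genes of low count entered with equal weight, so this does not settle whether the libraries were paired. The replicate block changed no count of members called. Depth limits *Mmp10* in NR and NRRA, at 48 to 59 counts.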

Other observations

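Of 22 tested genes of matrix substrates, 16 passed as higher and 4 as lower in NRRA against Veh, with 5 called higher and a median log2 fold change of 0.24, and in NR 14 passed as higher and 4 as lower, with 5 called higher. In RA 5 passed as higher and 13 as lower. Over all genes tested, 30.1% passed as higher and 28.7% as lower in NRRA, 21.7% and 22.2% in NR, and 19.8% and 23.4% in RA. The share called higher over all genes was 9.91% in NRRA and 5.33% in NR. The fibrillar collagen genes *Col1a1* (1.07 in NR, 1.02 in NRRA) and *Col3a1* (1.54 and 1.41), also among the fibroblast markers, rose in restricted medium, as did the basement membrane gene *Col4a5* (1.27 and 1.24). *Eln*, elastin, had 0.60 under RA, 0.52 under NR and 1.35 under NRRA, and *Acan*, aggrecan, had 0.98, -0.59 and 1.05. *Vcan*, versican, rose by 1.54 in NR and by 0.39 in NRRA, with an interaction of -1.18 (SE 0.068).

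Among 5 smooth muscle or peritubular markers, *Acta2*, smooth muscle actin, made up most of the summed level, with a mean of 80.1 CPM in Veh, 55.0 for RA, 509 for NR and 878 for NRRA. Of the 5, 4 passed as higher and 1 as lower under NR, and 4 passed as higher under NRRA. *Des*, desmin, was the lower one, with 6.39 CPM in Veh and 3.71 under NR, and stood at 5.90 CPM under NRRA. Over all genes tested, 21.7% passed as higher and 22.2% as lower under NR, and 30.1% as higher under NRRA.

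The 6 markers of differentiating spermatogonia split. Against Veh, 3 passed as higher and 1 as lower under RA, 3 and 2 under NR, and 5 and 1 under NRRA. Over all genes tested, 19.8% passed as higher and 23.4% as lower under RA, 21.7% and 22.2% under NR, and 30.1% and 28.7% under NRRA. *Stra8*, a retinoic acid target of germ cells, had a mean of 1.33 CPM in Veh, 642 for RA, 14.4 for NR and 937 for NRRA, and *Kit*, the receptor that marks differentiating spermatogonia, had 6.32, 207, 23.7 and 358 CPM in the same order. *Ccnd2*, cyclin D2, the most abundant of the 6 in CPM in Veh, RA and NR, had 1278, 854, 984 and 753 CPM. It was lower than Veh in each treated condition.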
